A study of Sus scrofa with 12 samples.

Results

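The genes of the integrins, cadherins and cell junctions were followed in messenger RNA of porcine mesenchymal stem cells (MSCs) and of the extracellular vesicles (EVs) that these cells release. Members were all genes of the count table whose symbol begins as an integrin chain, a cadherin, a protocadherin, a claudin, a connexin, JAM2 or JAM3, or a nectin, with no use of their values. The pattern matched 128 table entries, which came down to 91 members, of 13363 distinct symbols in all, once the most-read entry was kept for each symbol. They comprise 15 integrin alpha chains, 8 integrin beta chains, 3 other symbols that begin with ITG, 18 cadherins, 11 protocadherins, 21 claudins, 5 JAMs and nectins, and 10 connexins.

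The 6 mRNA libraries came from 3 female domestic pigs aged 3 months, with 1 MSC and 1 EV library for each pig. Both groups share the same source, since MSCs were grown from abdominal fat in medium with platelet lysate to passage 3, and EVs (labelled Mvex) were collected from the supernatant of the same pig's MSCs by ultracentrifugation. The comparison asks which of these genes differ in their share of RNA between EVs and their parent cells. Libraries held 10429085 to 12276855 reads counted on genes, and the members took 0.183% to 0.272% of them. Below, values in reads are raw counts for pigs 1, 2 and 3 in that order.

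Integrins are receptors made of an alpha and a beta chain, and the pair decides whether a cell grips fibronectin, collagen, laminin or another cell. Cadherins and protocadherins hold neighbouring cells together through calcium-dependent contacts, claudins and JAMs seal tight junctions, nectins start adherens junctions, and connexins build the channels of gap junctions. Mesenchymal cells are known for matrix-binding integrins and CDH2 rather than for the claudins and CDH1 of epithelia, and surface integrins of EVs are studied for their part in where EVs dock.

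Low read counts were more frequent among members with a doubled entry. Of the 91 members, 37 were doubled, meaning that another entry on the same strand shared at least 0.9 of the shorter span, with spans no more than 5-fold apart. A read that falls on 2 entries may be given to neither by the counter, and then only bases outside the shared part are read. Among the doubled members, 16 (43.2%) had 0 reads in all libraries and the median was 4.0 reads, whereas 11 of the 54 others (20.4%) had 0 reads and their median was 32.0. Over all entries of the table, 66.4% of doubled and 27.9% of other entries had 0 reads. The part of doubling in any one member's low count was not tested. Among members, doubling also went with family, since 19 of the 37 doubled members were claudins, and doubling and family were not separated here.

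ITGB1, the beta chain that most matrix-binding alpha chains pair with, had 1, 1 and 1 reads in MSCs against 2, 2 and 3 in EVs. Its entry (chromosome 10, 61450695 to 61502941, minus strand, susScr3) exceeds its double by 87 bases of exon. GJA1, the most widespread connexin, had 0, 0 and 2 reads in MSCs against 3, 1 and 0 in EVs, on an entry 2 bases longer than its double. Both counts are too low to compare the groups. By western blot, the paper found CD29, the ITGB1 protein, on these EVs. ITGB2, the beta chain of leukocyte integrins, had 4 reads on an entry 48 bases longer than its double, and CLDN1 and CLDN12 had 0 reads on entries that are not longer than theirs. Doubling does not always come with few reads. CLDN11, whose entry exceeds its double by 1436 bases, had 6224 reads, and ITGB5, with 273 extra bases, had 8176. Doubled entries made up 19 of the 21 claudins and 6 of the 8 integrin beta chains, but none of the protocadherins, JAMs and nectins (0 of 11 and 0 of 5).

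**Figure D1:**
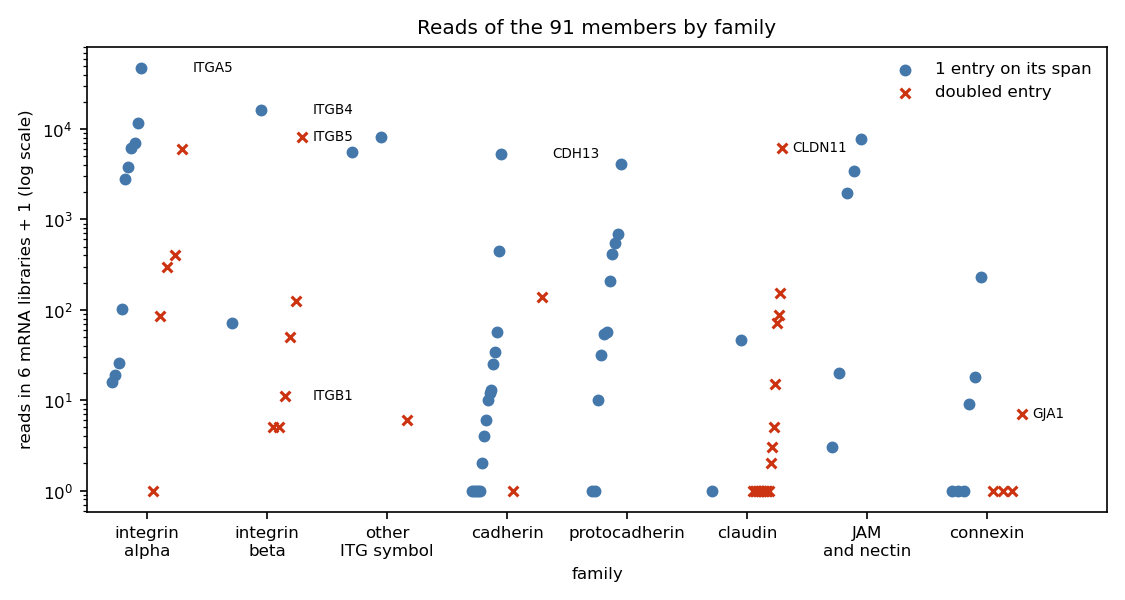
Reads over the 6 mRNA libraries plus 1 (log scale) for each of the 91 members, in columns by family. Points mark members that are not doubled by the rule in the text, crosses mark doubled members, and 7 members are labelled. Some points, such as those of PCDH7 and CDH13, still have another entry on their span, despite the wording of the legend. Claudins and integrin beta chains are mostly crosses, ITGB1 and GJA1 lie at 10 and 6 reads, and ITGA5 is the most-read member.

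Of the 91 members, 27 had 0 reads, 15 had 1 to 10 reads and 49 had more. A library with 0 reads allows up to 3 reads, about 0.244 to 0.288 CPM (reads scaled to library size), by counting error alone. The low-count filter kept 34 members, 11 of them doubled, which were tested in 1 fit with all 12392 entries kept. Another 30 members had reads, at most 56, but were not tested. Because the filter keeps a gene through whichever group is high, the 34 do not stand for the whole set.

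None of the 34 passed the adjusted threshold, an adjusted p under 0.05 at more than 2-fold, in edgeR's quasi-likelihood test, as was so for all entries (0%). Adjusted p-values of the 34 ran from 0.219 to 0.981, and 4 members had an unadjusted p under 0.05 (ITGA8, CLDN6, ITGA2 and ITGA10, background 16%). At the study's own thresholds on this fit, fold change over 2 and unadjusted p under 0.05, 1 member was higher in EVs (ITGA2), against a background of 5.55% of all entries, and 2 were lower (CLDN6 and ITGA8), against 3.57%. The share of members, 1 and 2 of 34, is near that background. The median log2 fold change, EV over MSC, was 0.08 over the 34 (range −2.38 to 1.28), with 19 above 0 and 15 below, and −0.02 over all entries. In bulk RNA, fewer cells or EVs that carry a transcript and less of it in each cannot be told apart.

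With the pig as a block, 2 members were higher (ITGA2 and CDH11, background 8.01%) and 4 lower (CLDN6, ITGA8, CDH13 and ITGA3, background 5.17%), all by unadjusted p. DESeq2 instead called 2 members lower at its adjusted threshold (ITGA8 and CLDN6) and none higher, where it called 3.54% of all entries. Groups did not overlap for 2 members that were higher in EVs (ITGA2 and ITGA10, background 14.3%) and 3 that were lower (ITGA8, CLDN6 and ITGB1BP1, background 13.6%).

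**Figure D2:**
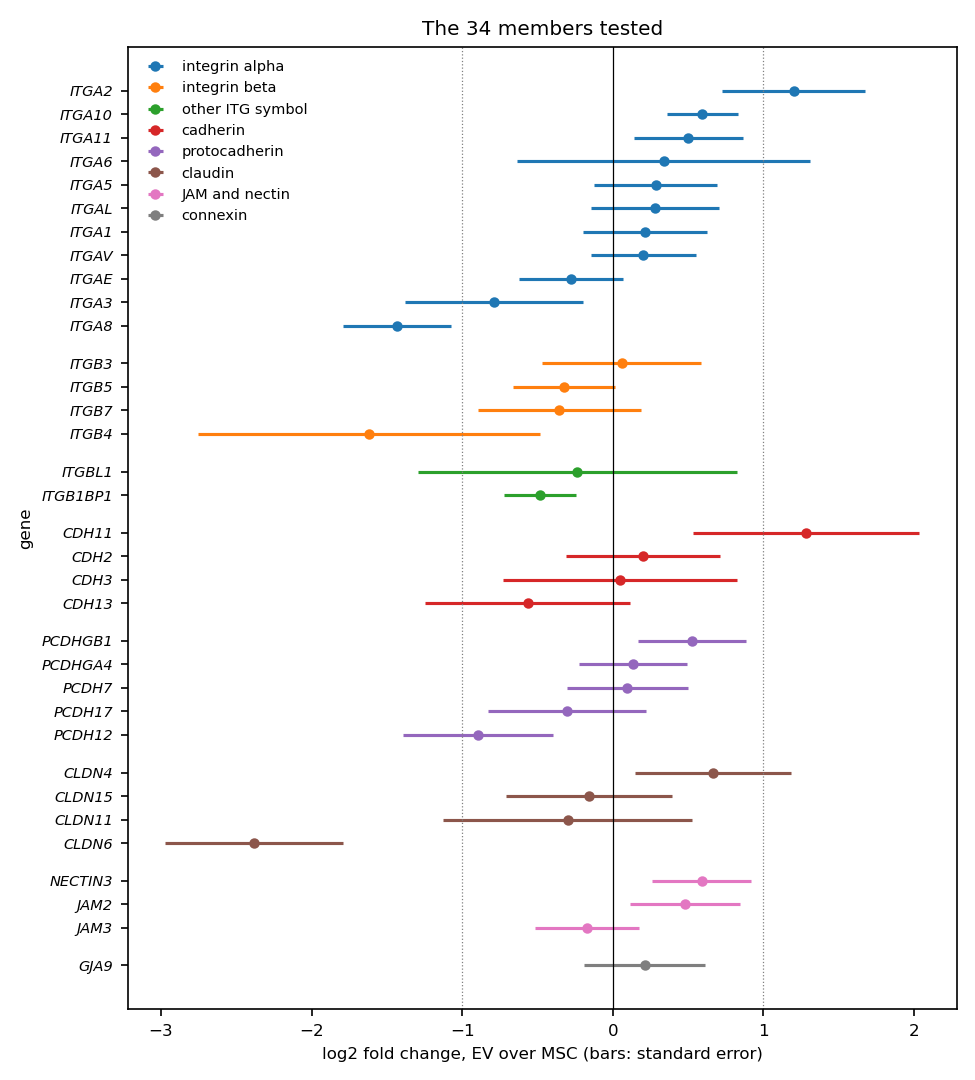
Log2 fold change, EV over MSC, from the edgeR fit for the 34 tested members, grouped and coloured by family, with bars of 1 standard error. Dotted lines mark a fold change of 2 either way. CLDN6 lies lowest at −2.38 and CDH11 highest at 1.28 with a long bar, and most members lie within the dotted lines.

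Among the integrin alpha chains, ITGA5 had the highest level per length in each library. In RPKM (reads scaled to gene length and library size) it stood at 36.2 ± 11.7 in MSCs and 44.8 ± 11.9 in EVs (SD, n = 3 each), which is 47.4% to 69.1% of the summed alpha chain RPKM in MSCs and 59.9% to 66.0% in EVs. Mean RPKM in MSCs then ran from ITGA8 (10.8) over ITGA11 (7.06), ITGA3 (3.62), ITGAV (3.08) and ITGA10 (2.36) to ITGA1 (1.39). Over the MSC libraries, the ranges of ITGA8 and ITGA11, ITGA3 and ITGAV, ITGAV and ITGA10, and ITGA10 and ITGA1 overlapped. In EVs ITGA11 (9.91) came second, followed by ITGA8 (3.92), ITGA10 (3.56), ITGAV (3.44), ITGA3 (2.10) and ITGA1 (1.55). There the ranges of ITGA8 and ITGA10, ITGA10 and ITGAV, ITGAV and ITGA3, and ITGA3 and ITGA1 overlapped. ITGA8 made up 19.7%, 11.0% and 19.9% of the alpha chain RPKM in MSCs and 6.42%, 4.35% and 5.90% in EVs. RPKM divides by the whole gene model, so that a doubled chain such as ITGAV, ITGA2 or ITGB5 is understated if shared bases were not read.

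**Figure D3:**
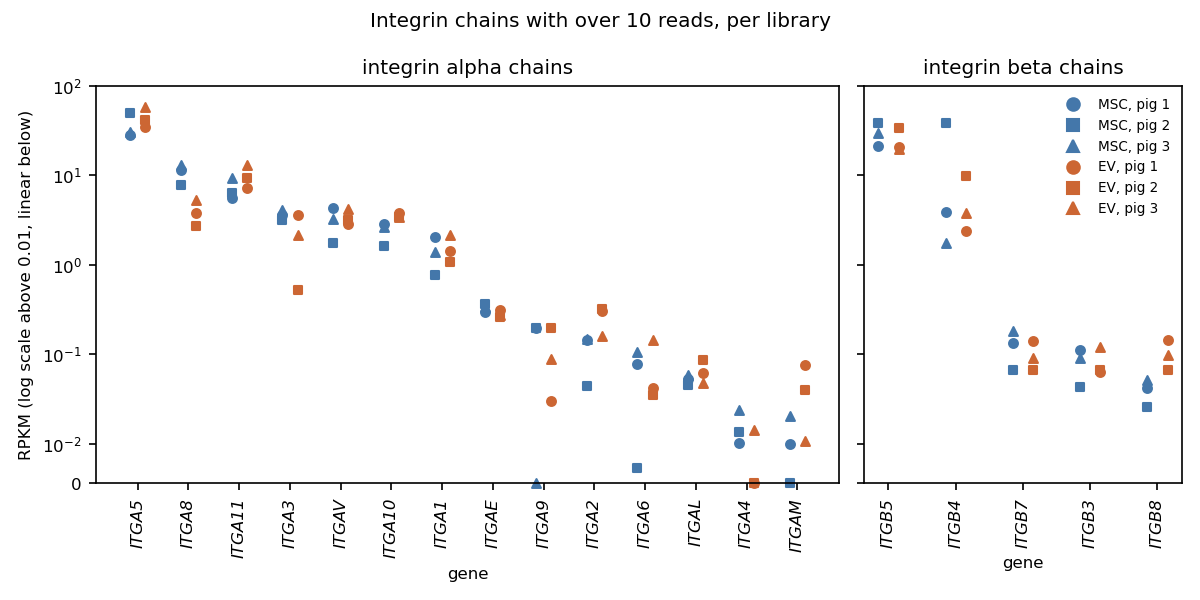
RPKM of the integrin alpha chains (left) and beta chains (right) with over 10 reads, 1 point per library, on a scale that is logarithmic above 0.01 and linear below. Colours mark MSCs and EVs and shapes mark pigs. ITGA5 leads in each library, the EV points of ITGA8 lie below its MSC points, and 1 MSC library of pig 2 stands apart for ITGB4.

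Chains that bind the RGD motif of fibronectin and vitronectin differed among themselves. ITGA8, the partner of ITGB1 in the receptor for nephronectin and fibronectin (chromosome 10, 50828508 to 51000248, plus strand), had 3152, 2104 and 3440 reads in MSCs against 944, 737 and 1344 in EVs. Each EV library lay below each MSC library. On the scale of TMM-normalised CPM, its level was 245.8 ± 45.2 in MSCs and 91.1 ± 40.4 in EVs (SD, n = 3 each), 2.70-fold lower in EVs by the fit (log2 fold change −1.43, SE 0.36, edgeR unadjusted p = 0.00425, adjusted p = 0.219). The log2 fold change stayed between −1.84 and −1.17 when any 1 library was left out, and the adjusted p was 0.0501 with the pig as a block and 0.0170 in DESeq2.

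ITGA5, the fibronectin receptor chain and the most-read member, had 5654, 9783 and 6070 reads in MSCs against 6512, 8275 and 10946 in EVs. Its groups overlapped (log2 fold change 0.29, SE 0.41, edgeR adjusted p = 0.721), with EVs above MSCs in pigs 1 and 3 and below in pig 2. ITGAV, the alpha chain shared by the vitronectin receptors, had 1357, 539 and 1001 reads in MSCs against 844, 1006 and 1269 in EVs, a log2 fold change of 0.20. No direction can be read from either chain at this spread.

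Chains that bind collagen had fitted fold changes on 1 side, though the grouping of alpha chains by ligand was set with results known. None passed the adjusted threshold (lowest edgeR adjusted p = 0.288), and ITGA1 was lower in EVs in pig 1 (log2 ratio −0.50). All 4 (ITGA1, ITGA2, ITGA10 and ITGA11) lay above 0 (background 49.1%), with a median log2 fold change of 0.55, and 3 of them were higher in EVs in each pig (background 22.6%). For ITGA2 (chromosome 16, 34164830 to 34265784, plus strand), the collagen receptor chain of platelets and epithelia, reads were 54, 16 and 54 in MSCs against 104, 119 and 56 in EVs. Its EV level was 2.30-fold higher by the fit, at 7.91 ± 1.96 CPM against 3.43 ± 1.66 (log2 fold change 1.20, SE 0.48, edgeR unadjusted p = 0.0370, adjusted p = 0.288). The groups were apart, but the lowest EV library held 56 reads and the highest MSC library 54. ITGA2 no longer passed the fold and unadjusted p thresholds together without MSC library 1 or 2, or without EV library 1 or 2. Without MSC library 2 its log2 fold change was 0.85, under the fold threshold.

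ITGA10, a chain of cartilage and stromal cells that is described because its unadjusted p passed, had 1027, 572 and 936 reads in MSCs against 1273, 1244 and 1169 in EVs. It was chosen after its values were seen. Its level was 71.2 ± 14.3 CPM in MSCs and 107.6 ± 10.6 in EVs, with no overlap (log2 fold change 0.60, SE 0.24, edgeR unadjusted p = 0.0376, adjusted p = 0.289). ITGA11, the main fibrillar collagen receptor of fibroblasts, had 792, 903 and 1301 reads in MSCs against 953, 1339 and 1781 in EVs, with overlap (log2 fold change 0.50, SE 0.36, edgeR adjusted p = 0.484). ITGA1 had 246 to 657 reads in MSCs and 352 to 653 in EVs, a log2 fold change of 0.21 that turned to −0.23 without EV library 3. ITGA1 and ITGA2 lie 27438 bases apart on chromosome 16.

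Laminin-binding chains varied between pigs. ITGA3 had 834, 712 and 931 reads in MSCs against 776, 121 and 471 in EVs, so that the EV library of pig 2 stood lowest (log2 fold change −0.79, edgeR adjusted p = 0.495). The blocked fit put it at −1.13, with an unadjusted p of 0.0469 in edgeR. ITGA6, the alpha partner of ITGB4 in hemidesmosomes, had 20, 1 and 27 reads in MSCs against 10, 9 and 35 in EVs. Chains of leukocytes were near the floor, with ITGAL at 11 to 21 reads per library, ITGAM at 15 reads in all and ITGA4 at 18. ITGA2B, the platelet chain, is listed at 0 on a doubled entry. ITGAE, which pairs with ITGB7 on mucosal T cells, had 42 to 59 reads per library.

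Beta chains rested on ITGB5 and ITGB4. ITGB5, a vitronectin receptor chain, had 1087, 1917 and 1498 reads in MSCs against 980, 1742 and 952 in EVs, lower in EVs in each pig after scaling but with overlap of the groups (log2 fold change −0.32, SE 0.34, edgeR adjusted p = 0.623). ITGB4, the hemidesmosome chain (chromosome 12, 5597669 to 5632075, minus strand), had 1092, 10498 and 472 reads in MSCs against 622, 2755 and 982 in EVs. Pig 2 was highest in both groups, and the MSC libraries spanned 25.1-fold in CPM. The fitted log2 fold change of −1.62 (SE 1.13, edgeR adjusted p = 0.469) turned to 0.97 without MSC library 2. ITGA6 had 1 read in that same library. ITGB3, which pairs with ITGAV, had 11 to 29 reads per library in either group, ITGB7 had 7 to 19, and ITGB8 had 3 to 6 in MSCs and 8 to 16 in EVs, the latter chain untested at 49 reads in all.

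Other symbols that begin with ITG are not receptor chains. ITGB1BP1, a cytoplasmic protein that binds the tail of ITGB1, had 924, 1166 and 1121 reads in MSCs against 838, 840 and 619 in EVs, apart but with a log2 fold change of −0.48 (SE 0.24, edgeR adjusted p = 0.346). ITGBL1, a secreted protein that resembles part of a beta chain, had 1419, 1147 and 2131 reads in MSCs against 378, 107 and 2968 in EVs. Its EV libraries spanned 35.9-fold in CPM. The log2 fold change was −0.23 over all libraries, −2.73 without EV library 3 (edgeR unadjusted p = 0.00394) and 0.34 without EV library 2. ITGB1BP2 had 5 reads.

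Cadherins were led by CDH13, the cadherin that is held by a lipid anchor and binds adiponectin. It had 1062, 867 and 1397 reads in MSCs against 479, 197 and 1346 in EVs, and made up 68.2% to 94.5% of the cadherin RPKM in each library. EVs lay below MSCs in pigs 1 and 2 and slightly above in pig 3 (log2 fold change −0.56, SE 0.68, edgeR adjusted p = 0.673). Without EV library 3 the log2 fold change was −1.76 (unadjusted p = 0.00800), and with the pig as a block it was −1.07 (unadjusted p = 0.0420, adjusted p = 0.238).

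CDH2, the N-cadherin of mesenchymal cells, had 111, 50 and 47 reads in MSCs against 130, 68 and 36 in EVs, with overlap (log2 fold change 0.20, SE 0.51). CDH11, the cadherin of osteoblasts and stromal cells, had 5, 5 and 31 reads in MSCs against 39, 25 and 33 in EVs, on a doubled entry. EVs were higher in each pig, but MSC library 3 reached the EV range (log2 fold change 1.28, SE 0.75, edgeR adjusted p = 0.401). Its log2 fold change was 2.69 without that library (unadjusted p = 0.00368) and 1.67 with the pig as a block (unadjusted p = 0.0258, adjusted p = 0.203). CDH3 had 56 reads in all and CDH1, the E-cadherin of epithelia, had 9. The other 13 untested cadherins had between 0 and 33 reads, with 6 of them at 0.

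Protocadherins, cadherin relatives best known from nerve cells, included 5 tested members. PCDH17 had 553, 715 and 1048 reads in MSCs against 337, 415 and 999 in EVs, lower in pigs 1 and 2 only (log2 fold change −0.31, and −1.13 without EV library 3, edgeR unadjusted p = 0.0193). PCDHGB1, of the clustered gamma genes, had 73, 117 and 90 reads in MSCs against 128, 188 and 96 in EVs. It was higher in EVs in each pig with overlap of the groups (log2 fold change 0.53, SE 0.36), and so was PCDHGA4, which lies 29831 bases away on chromosome 2, at a log2 fold change of 0.14. Gamma genes share their last exons, but the entries of PCDHGB1 and PCDHGA4 do not overlap, so that no counted base is common to both. PCDH12 had 66, 122 and 81 reads in MSCs against 38, 34 and 68 in EVs, a log2 fold change of −0.89, or −1.43 without EV library 3. PCDH1 had 48 of its 56 reads in EV library 3 and was not tested.

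PCDH7 gave different values on its 2 entries. The most-read entry (chromosome 8, 24323042 to 24333142) had 81, 48 and 136 reads in MSCs against 108, 97 and 72 in EVs, and the groups overlapped (log2 fold change 0.10, SE 0.40). The second entry starts at the same base and reaches to 24731352. It had 16, 14 and 38 reads in MSCs against 55, 107 and 114 in EVs, so that each EV library lay above each MSC library. By the fit its log2 fold change was 2.07 (SE 0.54, edgeR unadjusted p = 0.00541, adjusted p = 0.219), with an adjusted p of 0.0521 with the pig as a block and 0.0170 in DESeq2. With both entries summed, the log2 fold change was 0.78 (SE 0.39, edgeR adjusted p = 0.352). The second PCDH7 entry covers the whole span of the most-read one on the same strand, so a read that falls on both may be given to neither. They are not counted as doubled because their spans are more than 5-fold apart. The part of read assignment in the 2 fold changes was not tested. CDH13 also has a second entry, on the opposite strand and overlapping, with 464, 229 and 534 reads in MSCs against 202, 95 and 724 in EVs (log2 fold change −0.08). Strand use in counting is not given in the sources used here, and reads of the 2 CDH13 entries cannot be told apart with certainty.

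**Figure D4:**
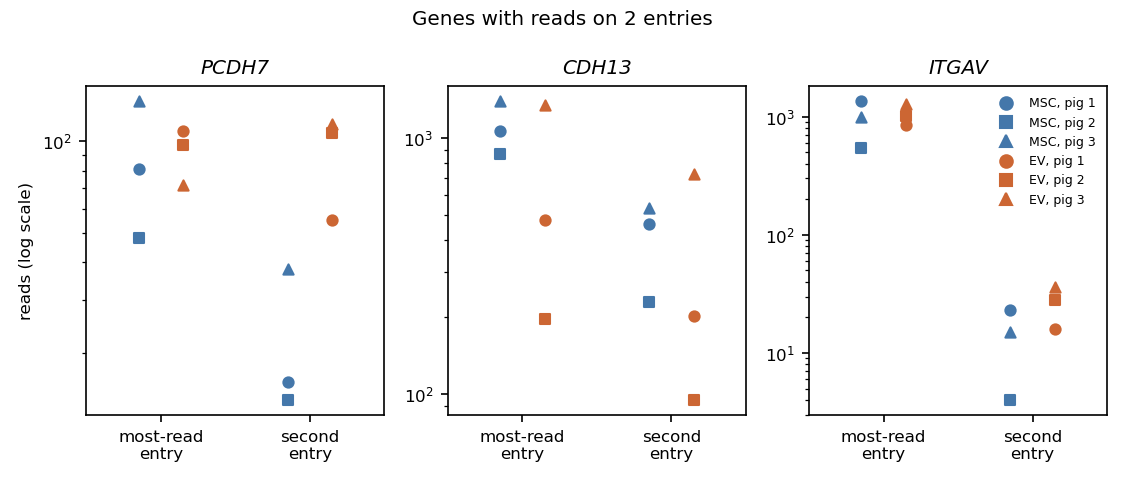
Reads (log scale) on the most-read and the second entry of PCDH7, CDH13 and ITGAV, 1 point per library, with colours for MSCs and EVs and shapes for pigs. The EV points of the second PCDH7 entry, 55 to 114 reads, lie above its MSC points, 14 to 38 reads, while those of the most-read PCDH7 entry and of both CDH13 entries overlap.

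Claudins were few and low apart from CLDN11, the claudin of myelin and of Sertoli cells. CLDN11 had 671, 348 and 2573 reads in MSCs against 667, 363 and 1602 in EVs, highest in pig 3 in both groups (log2 fold change −0.30, SE 0.83). The direction turned to 0.94 without MSC library 3. CLDN6, a claudin of embryonic epithelia (chromosome 3, 40527338 to 40530975, minus strand), had 42, 24 and 63 reads in MSCs against 8, 4 and 11 in EVs. Its entry is doubled and exceeds its double by 546 bases, so its reads may come from those bases only. Each EV library lay below each MSC library, and all 3 pigs had log2 ratios at or below −2.26.

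Levels of CLDN6 were 3.63 ± 1.56 CPM in MSCs and 0.700 ± 0.401 in EVs, 5.21-fold lower in EVs by the fit (log2 fold change −2.38, SE 0.59, edgeR unadjusted p = 0.00422, adjusted p = 0.219). The log2 fold change was −2.86 to −2.00 when any 1 library was left out, and the adjusted p was 0.0602 with the pig as a block and 0.0188 in DESeq2. CLDN9, which lies 351 bases from CLDN6, had 11, 5 and 20 reads in MSCs against 6, 1 and 2 in EVs and did not pass the filter. Both claudin spans lie within the spans of the TNFRSF12A and ZNF205 entries. These entries and CLDN9 are on the plus strand, opposite to CLDN6. TNFRSF12A, a receptor of the TNF family, had 141, 177 and 101 reads in MSCs against 59, 60 and 27 in EVs (log2 fold change −1.55, edgeR adjusted p = 0.219). ZNF205 had 62, 93 and 75 reads in MSCs against 66, 72 and 68 in EVs (log2 fold change −0.15). The part of either entry in the CLDN6 and CLDN9 counts was not tested.

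CLDN15, a pore-forming claudin of the gut, had 7 to 22 reads per library (log2 fold change −0.16), and CLDN4, which tightens epithelial barriers, had 6 to 17 (log2 fold change 0.67, higher in EVs in each pig). CLDN5, the endothelial claudin, had 14 reads in all. The other 15 claudins included 12 with 0 reads, 11 of them doubled, and 0 reads on such an entry do not show that a gene is silent.

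Of the JAMs and nectins, 3 were tested and none was doubled. NECTIN3 had 1345, 587 and 1254 reads in MSCs against 1248, 1535 and 1744 in EVs, higher in EVs in each pig with overlap of the groups (log2 fold change 0.59, SE 0.33, edgeR adjusted p = 0.386). JAM3, which binds JAM2 across cell contacts, had 882, 437 and 583 reads in MSCs against 444, 444 and 688 in EVs (log2 fold change −0.17). JAM2 had 320, 255 and 250 reads in MSCs against 545, 220 and 346 in EVs (log2 fold change 0.48). Neither JAM separated the groups. Of the connexins only GJA9 passed the filter, with 26 to 43 reads in MSCs and 34 to 54 in EVs (log2 fold change 0.21). GJA5 had 8 reads, and 6 connexins had 0. GJB1, like PCDH19, is listed at 0 on an X chromosome entry, where all 1120 entries of that name hold 0 reads.

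Some differences between pigs were seen in both groups. Of the 34 tested members, 17 (50.0%) had their highest level in the same pig in MSCs and in EVs, against 38.0% of all entries. The count was 3 of 11 among integrin alpha chains and 4 of 4 among cadherins, and it is not read as a trait of the set. In pig 3, ITGBL1, CDH13 and PCDH17 were at log2 ratios of 0.73, 0.20 and 0.19 (EV over MSC), whereas in pig 2 they were at −3.72, −2.43 and −1.08 and in pig 1 at −1.78, −1.02 and −0.59. For ITGB4 the ratios were −0.69, −2.22 and 1.31 in pigs 1, 2 and 3. The pigs thus differed in direction for these 4 members. In ITGA8 and CLDN6 all 3 pigs lay on 1 side, at −1.61, −1.81 and −1.10 and at −2.27, −2.88 and −2.26. Over the 34 members, 8 were higher in EVs in all 3 pigs (background 22.6% of all entries) and 4 were lower (background 24.3%).

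**Figure D5:**
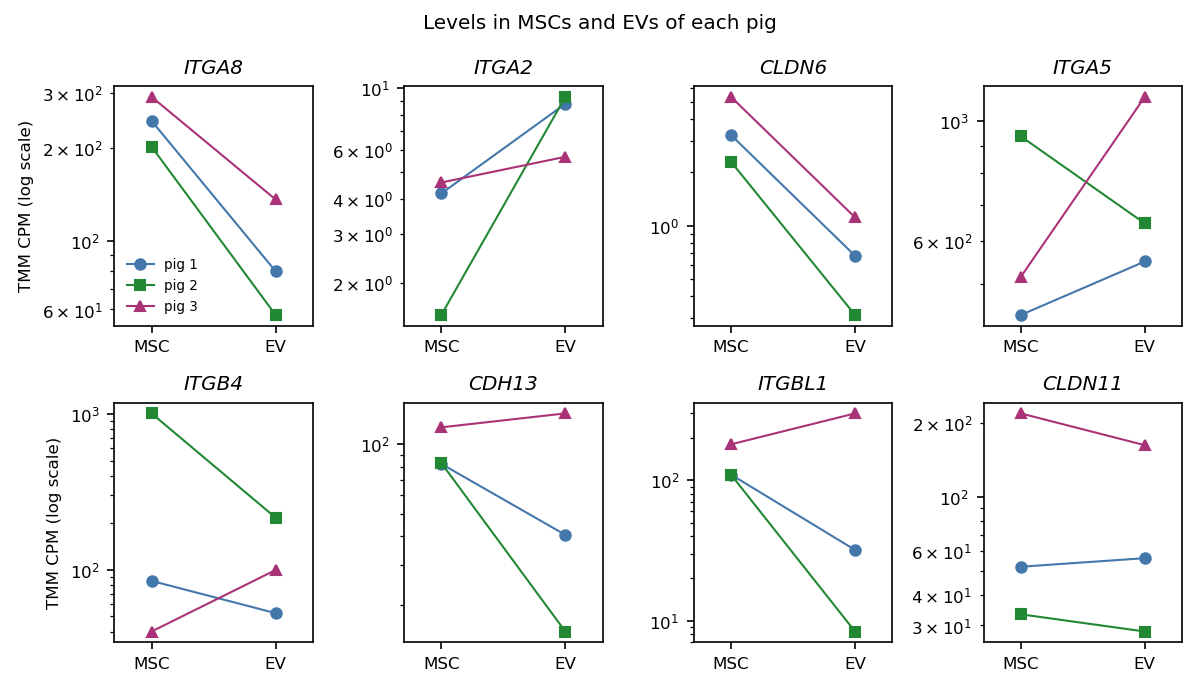
Level in TMM-normalised CPM (log scale) of 8 members in the MSCs and EVs of each pig, with a line joining the libraries of 1 pig. Lines for ITGA8 and CLDN6 slope down in the 3 pigs and those for ITGA2 slope up, whereas in ITGB4, CDH13 and ITGBL1 pig 3 runs the other way from pigs 1 and 2.

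Proteins that link these receptors to the cell interior were given by lists. The lists were chosen with earlier results of these data known, so their counts beside the background are a description only. Of 26 integrin adaptors and activators, 22 had an entry and 20 were tested, with a median log2 fold change of −0.44 beside −0.02 over all entries. None passed the adjusted threshold in edgeR, 16 of the 20 lay below 0 (background 50.9%), 9 were lower in EVs in each pig (background 24.3%), and the 6 with an unadjusted p under 0.05 were all lower (background 7.93% in that direction). LIMS2, which joins ILK in focal adhesions, had 62, 193 and 69 reads in MSCs against 10, 4 and 9 in EVs (log2 fold change −3.81, SE 0.71, edgeR unadjusted p = 0.000793, adjusted p = 0.206). It was the only 1 of the 20 past a fold change of 2 by unadjusted p, which is near the background of 3.57% lower in EVs. TLN1, the talin that switches integrins on and the most-read of the list, had 20466, 18945 and 15303 reads in MSCs against 11186, 14678 and 10422 in EVs (log2 fold change −0.58, SE 0.28, adjusted p = 0.343).

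Catenins, which tie cadherins to actin, could be tested for 3 of 11 genes, at a median of −0.39, and none passed either threshold. CTNNA1 had 7491, 8852 and 5908 reads in MSCs against 5041, 5181 and 3971 in EVs (log2 fold change −0.65, edgeR adjusted p = 0.316), while CTNNB1, on a doubled entry, had 1 to 8 reads per library. Tight junction proteins, tested for 9 of 20 genes, had a median of 0.26 and none passed, with TJP1 as the most-read (log2 fold change 0.26, SE 0.26). Desmosome genes, tested for 5 of 11, had a median of −0.50, again with none past either threshold. DSC2, a desmosomal cadherin outside the symbol pattern, was the most-read there at 1140, 159 and 1074 reads in MSCs against 1187, 902 and 1562 in EVs (log2 fold change 0.76).

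The leukocyte, epithelial and platelet marker lists hold 6 of the members themselves. Markers of MSCs were present, with NT5E (CD73) at 900 to 1816 reads per library, CD44 at 3603 to 10023, and PDGFRB at 3464 to 10480. THY1 (CD90) is listed at 0 and ENG (CD105) had 44 to 114 reads, both on doubled entries. The paper reports that the MSCs expressed CD90 and CD105, by antibody staining. Of 6 endothelial markers, 5 had an entry and PECAM1 held most reads, at 215, 111 and 114 in MSCs against 78, 20 and 31 in EVs (log2 fold change −1.71, edgeR adjusted p = 0.249), with KDR at 1 read and VWF listed at 0. PECAM1, on a doubled entry, was the only marker of this list that was tested, while TIE1 had 13, 12 and 2 reads in MSCs against 5, 3 and 8 in EVs. Summed, and thus mostly by PECAM1, the endothelial list had 116 to 228 reads in MSCs and 24 to 84 in EVs. That is lower in EVs, as were ITGA8 and CLDN6, and its part in those results was not tested. Leukocyte markers summed to 512 to 702 reads in MSCs and 480 to 821 in EVs, mostly of CD14, with PTPRC at 2 to 10 per library. Epithelial markers, of which KRT8 is listed at 0, summed to 10 to 20 reads in MSCs and 23 to 68 in EVs. Platelet markers, with ITGA2B and PPBP listed at 0, summed to 44 to 57 and 24 to 57 reads. VWF, KRT8, ITGA2B and PPBP are all on doubled entries, where a count of 0 does not show that a gene is silent.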

How the data were processed

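Primary MSCs and their EVs were sequenced as mRNA on an Illumina instrument. The authors aligned reads to the pig genome (build susScr3 per the submitters' processing notes) with TopHat. They counted them per gene (featureCounts in the methods, HTSeq in the notes) and deposited raw counts with RPKM, both used here as deposited. The labels name a stranded total RNA kit and the methods another TruSeq kit. Settings for strand and overlapping genes are not given in the sources used here. The small RNA files were not used.

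Of 29661 entries, 3 with shifted columns were left out. Symbols came from the table (4336 entries) or from the Ensembl annotation table (11804 of 25322 entries with Ensembl IDs). EVs were compared with MSCs in edgeR 4.0.16 (R 4.3.3; TMM, filterByExpr, quasi-likelihood test, no block) over all 12392 entries kept, with Benjamini-Hochberg adjustment. Alternatives were DESeq2 1.42.0 with its size factors, RLE factors, no filter (at least 1 read), a filter of over 1 CPM in 3 libraries, the pig as a block, entries of a symbol summed, and each library left out. Labels give the same pig IDs in both groups. Deviations from the group means correlated at 0.251 to 0.408 within pigs and at −0.364 to −0.0385 between them. Centring on the group means makes the values between pigs negative on average once those within pigs are positive. The fit was tested on simulated data. Replicates are separate pigs, 3 per group, and members with few reads also carry a large counting error.

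The rule named the 3 most-read tested members of each family and all past a fold change of 2 with an unadjusted p under 0.05, and partners by the same thresholds or as the most-read of a list. Members, lists, ligand groups of the alpha chains and rules were chosen with earlier results of these data known.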

Additional observations from a re-analysis of the deposited data

How the results depend on the processing

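At the adjusted threshold 0 members were lower in EVs, and 2 in DESeq2. By unadjusted p, 1 member was higher (2 with the pig as a replicate block, 0 to 2 when 1 library was left out, with 0 without MSC library 1 or 2 or EV library 1) and 2 were lower (4 with the block, 2 to 6 when 1 library was left out, with 6 without EV library 3). The median of 0.08 ranged from −0.17 without EV library 3 to 0.20 without MSC library 3. No filter added CLDN9 to the lower members (3), and RLE factors, the stricter filter and summed entries changed none of these counts. Among the 20 members named by rule, leaving out 1 library turned the direction of ITGA5 (−0.0768 to 0.69), ITGB4 (−2.34 to 0.97), ITGB3 (−0.43 to 0.28), CDH2 (−0.37 to 0.60), PCDH7 (−0.15 to 0.55), CLDN11 (−1.26 to 0.94), CLDN15 (−0.54 to 0.20), JAM3 (−0.56 to 0.0454) and GJA9 (−0.0186 to 0.36). It also turned that of ITGA1 (−0.23 to 0.50), ITGAV (−0.11 to 0.44), ITGA6 (−0.77 to 0.98), CDH3 (−0.34 to 1.42) and ITGBL1 (−2.73 to 0.34). The cause was not tested, beyond the smaller number of samples. Of 240 alternative values for those 20, 215 kept direction and side of the threshold, 16 turned, 5 passed it anew and 4 no longer passed. With the block, no call changed beside those given above. At this depth 57 members had too few reads to test.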

Other observations

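Single libraries carried most reads of some low junction genes. EPCAM, an epithelial adhesion protein, had 1, 4 and 6 reads in MSCs against 7, 6 and 49 in EVs. PCDH1 had 4, 0 and 1 reads in MSCs against 3, 0 and 48 in EVs, with the same EV library of pig 3 apart. DSP, the plakin of desmosomes, had 1, 4 and 117 reads in MSCs against 8, 9 and 2 in EVs, so that here MSC library 3 stood apart.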
